A study of Mus musculus with 6 samples.

Results

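The comparison described here set the pancreas of 2 mice given polyI:C and then caerulein (polyI:C AP) against the pancreas of 2 mice given saline, across all 22556 genes that the tables list for each mouse. It addressed which changes of acute pancreatitis (AP) were still present after polyI:C, and which genes ended below or above the level of the saline pancreas. These 4 mice, and the 2 mice given caerulein alone (AP) that make up the rest of the 6 sequenced, were wild-type C57BL/6 mice in postnatal week 8. PolyI:C is a synthetic double-stranded RNA recognised by Toll-like receptor 3 (TLR3), and was given into the peritoneum at 10 mg/kg. Caerulein, a peptide analogue of the gut hormone cholecystokinin, was then given in 10 injections of 200 µg/kg, 1 h apart, after 8 h of fasting, and the pancreas was taken 24 h after the first injection. The methods give intervals of 1 h and of 8 h between polyI:C and caerulein and do not say which one applied to the sequenced mice. No sequenced mouse received polyI:C without caerulein, so an action of polyI:C on healthy pancreas and an action on inflamed pancreas cannot be told apart here. In other mice the paper gave polyI:C before injections of saline. It reported no significant difference in edema, serum enzymes, Il1b, Cxcl1 and Cxcl2 by qPCR, or neutrophils and macrophages. Each group held 2 mice, and p-values measure only the spread between such mice.

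Acinar cells make up most of the exocrine pancreas and carry an extensive endoplasmic reticulum in which digestive zymogens are made, folded and packed for release. Overstimulation by caerulein activates trypsinogen inside these cells, damages them, turns down the secretory programme, turns on duct-like keratins and tight-junction proteins, and draws monocytes and neutrophils into the gland. TLR3 sits in endosomes and, once bound by double-stranded RNA, signals through the adaptor TRIF to type I interferon and NF-kB. Interferon in turn acts on antiviral genes and on antigen presentation by MHC class I.

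The tables hold TPM, a share of the transcripts in a library after correction for gene length, which have the same sum in each mouse, so a value is a share of the library. Reads per library, estimated from the spacing of the TPM values, were 3976168 and 3300124 in the saline mice and 8822649 and 10856048 in the polyI:C AP mice. One read in a gene of median length was therefore worth 0.216 and 0.265 TPM in the saline mice but 0.120 and 0.0955 TPM in the polyI:C AP mice. A gene listed at 0 in saline was less well measured than one listed at 0 in polyI:C AP. The tissue label was checked against cell markers. The acinar product Sycn stood at 98753 and 86866 TPM in saline, and Spink1, the trypsin inhibitor of the acinar cell, at 38301 and 40739.8 TPM. Of 32 acinar secretory genes sought, 12 were in the tables, and the other 20 were not analysed here.

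One of the 2 polyI:C AP libraries stood apart from all others. In polyI:C AP mouse 2, 264 of the 16814 genes tested (218 of them protein coding) were at least 4-fold above each of the other 5 libraries and summed to 1.81% of its TPM, against 23 to 55 such genes in any other library. They included genes of the small intestine. From a list of 26 intestinal genes written after these values were seen, 25 were in the tables and all 25 were highest in this mouse. Their summed level was 6643 TPM in polyI:C AP mouse 2 and 29.1 to 106 TPM in the other 5. The fatty acid carriers Fabp1 and Fabp2 reached 1430 and 1083 TPM there and did not pass 3.35 TPM in any other library. Among the 25 genes, 1 (Defa24, a Paneth cell defensin) was called raised in the comparison, and it lost the call without polyI:C AP mouse 2 (adjusted p 0.061), without saline mouse 2 (0.11) and without AP mouse 1 or mouse 2 (0.072 and 0.069). All genes and whole lists below were also fitted without this mouse, and a result is given without it where a call changed or a count moved by over 1.5 times. Counts for parts of a list, such as keratins, p53 targets or antiviral effectors, were not repeated without it. Its part in values that kept their call was not tested. Where it was left out, the single polyI:C AP mouse was assumed to vary like the other groups.

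**Figure D1:**
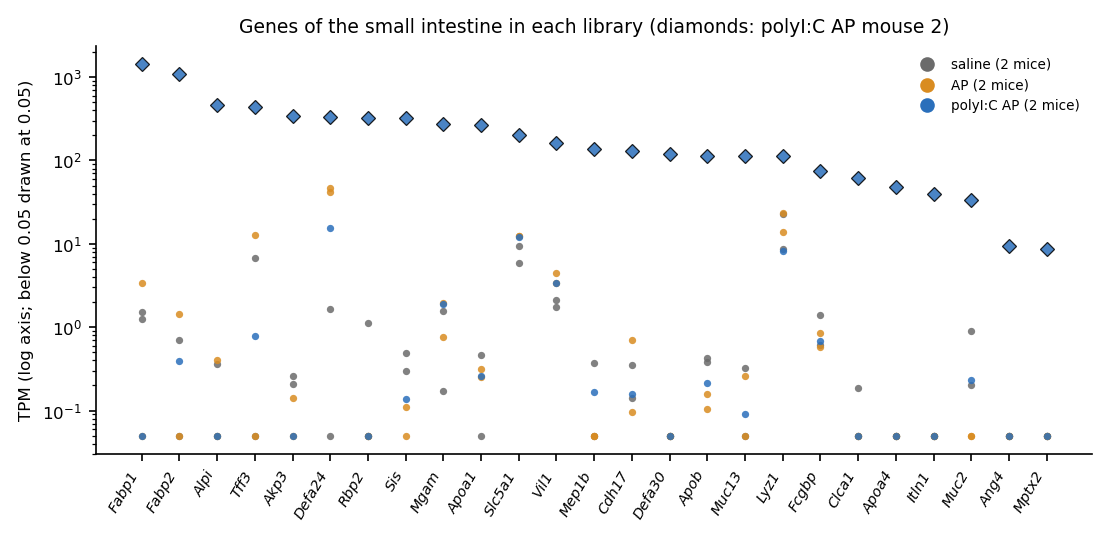
TPM (log axis) of the 25 intestinal genes in each of the 6 libraries, with genes ordered by their level in polyI:C AP mouse 2 (diamonds). Every diamond lies above the 5 other points of its gene, whose summed levels were 29.1 to 106 TPM against 6643 TPM.

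After polyI:C and caerulein, acinar secretory genes were low, and epithelial, cytoskeletal, p53, interferon and MHC class I genes were high against saline, while macrophage and MHC class II genes were near or below it. Tests covered the 16814 genes whose mean reached 1 TPM. Of these, 2838 (16.9%) were at least 2-fold higher and 500 (2.97%) at least 2-fold lower than in saline at an adjusted p of at most 0.05 (limma on log2(TPM + 0.5), Benjamini-Hochberg over all tested genes). Such genes are called raised and reduced below, and differences are on that log2 scale, on which changes of genes with low TPM look smaller than they are. The median absolute difference of a gene was 0.69 between the groups, 0.29 between the 2 saline mice and 0.21 between the 2 polyI:C AP mice. Both polyI:C AP mice were above both saline mice in 9140 of the 16814 tested genes and below both in 2353, so groups without overlap were common. Lack of overlap is given below to describe the values of single genes and is not further evidence for a call. An exact permutation test of 2 mice against 2 could not give a p below 0.333, so only the model across all genes was used.

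Because TPM are shares of a library, the balance of rises and falls depends on the scale. The median difference over all tested genes was 0.48. After the libraries were scaled to a common median ratio this median was 0.04, and 1281 genes (7.62%) were then raised and 1016 (6.04%) reduced. All 1281 were among the 2838 raised genes, and all 500 genes reduced as deposited were reduced after scaling. A difference can be read against this 0.48, and scaled counts of whole lists are given beside the others where they differ. Without polyI:C AP mouse 2, 2166 genes were raised and 342 reduced. In bulk pancreas, fewer cells of a type and less RNA per cell cannot be told apart.

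Values in AP are given beside those in polyI:C AP, and here the calls rested on each mouse of both groups. Between polyI:C AP and AP, 74 genes (0.44%) were raised and 68 (0.404%) reduced with all 6 mice (limma), and voom on estimated reads gave 112 and 211. No gene passed without AP mouse 1, without AP mouse 2 or without polyI:C AP mouse 2, where the lowest adjusted p over all tested genes was 0.127, 0.118 and 0.0643. At an unadjusted p of at most 0.05 and 2-fold, these fits gave 341 raised and 371 reduced, 371 and 276, and 261 and 348 genes, and all 6 mice gave 327 and 401. The calls were 48 and 5 without polyI:C AP mouse 1, 34 and 46 without saline mouse 1, and 31 and 41 without saline mouse 2. A prior that followed mean log2 TPM gave 14 and 14. Differences and adjusted p against AP below are those with all 6 mice. The 34 genes named below that had a call against AP kept its direction with any 1 mouse left out, with adjusted p of up to 0.453. That comparison shares the polyI:C AP mice with the one against saline, so the values of both are given side by side only.

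**Figure D2:**
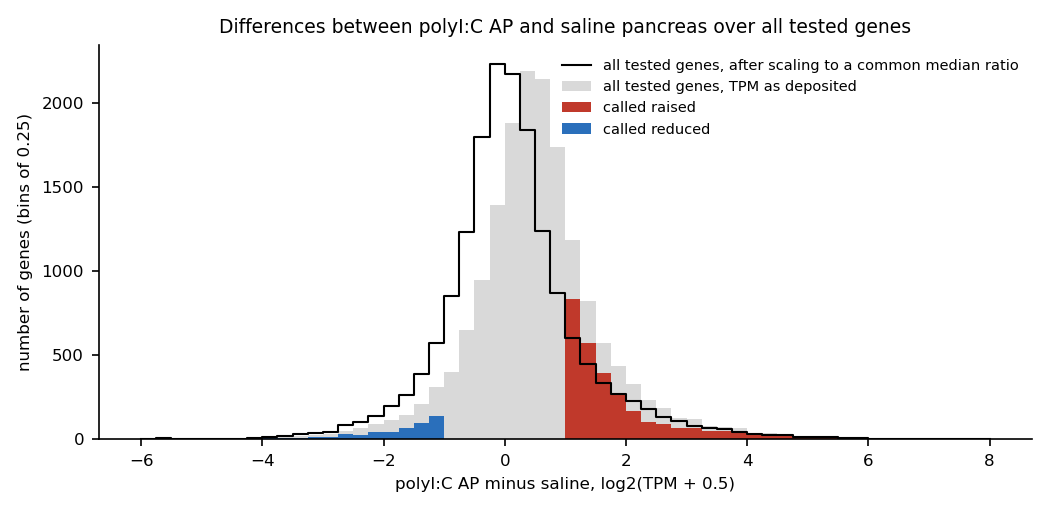
Number of genes (bars 0.25 wide) by the difference of polyI:C AP minus saline on log2(TPM + 0.5). Grey bars are all 16814 tested genes as deposited, red and blue bars those called raised and reduced, and the black line all tested genes after scaling. The grey distribution is centred on 0.48 and the black line on 0.04.

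Transcripts of acinar secretory proteins were low. Of the 12 acinar secretory genes tested, 10 were reduced and none raised (11 and none after scaling), with a median difference of -1.97. Serpini2, a serine protease inhibitor made by acinar cells (ENSMUSG00000034139, chr3:75242370-75270078 on GRCm38, a protein-coding gene), stood at 13304 and 14852 TPM in saline and 368 and 502 TPM in polyI:C AP, a 32.4-fold lower mean (difference -5.03, SE 0.17, adjusted p 2.2e-05). Sycn, which encodes a zymogen granule membrane protein, went from 98753 and 86866 TPM to 14466 and 11044 TPM (difference -2.87, SE 0.22, adjusted p 0.00024). Both polyI:C AP mice lay below both saline mice for either gene, as they did for Ctrc, the chymotrypsin that degrades trypsin, at 1742 and 1677 TPM in saline and 159.7 and 141 TPM in polyI:C AP (difference -3.51, SE 0.11, adjusted p 1.9e-05). Amy2a5, a pancreatic amylase gene, was at 290.1 and 213 TPM in saline and 52.6 and 57.2 TPM in polyI:C AP (difference -2.17, adjusted p 0.00032). Pla2g1b, the secreted pancreatic phospholipase A2, was at 228 and 207 TPM against 2564 and 1299.8 TPM in saline (difference -3.07, adjusted p 0.00053). The remaining 2 of the 12, Spink1 and the trypsinogen gene Prss3, did not pass. Spink1 was at 25577 and 28861 TPM in polyI:C AP (difference -0.54, adjusted p 0.019), short of 2-fold, and Prss3 at 1688 and 3647 TPM against 6211 and 4412 TPM in saline (difference -1.08, adjusted p 0.12). Trypsinogen genes are near-identical copies, and how their reads were shared among Prss1, Prss3 and Try10 is uncertain. Without polyI:C AP mouse 2, 7 of the 12 were reduced.

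Genes of acinar identity and of the secretory pathway were reduced in part. Of 26 tested genes of acinar identity and secretion, 7 were reduced and 2 raised (11 and 0 after scaling), with a median difference of -0.15. Derl3, which helps pull misfolded proteins out of the endoplasmic reticulum, was not on this list. It showed the largest fall of all by the naming rule (ENSMUSG00000009092, chr10:75893413-75895941 on GRCm38, a protein-coding gene): it was at 350.2 and 330.3 TPM in saline and 8.28 and 5.45 TPM in polyI:C AP (difference -5.56, SE 0.21, adjusted p 2.6e-05). It was at 34.7 and 26.3 TPM in AP, so the polyI:C AP mice also lay below both AP mice (difference -2.09, adjusted p 0.015). Tmed6, a cargo receptor of early secretory vesicles, was at 4618 and 4607 TPM in saline and 749 and 741 TPM in polyI:C AP (difference -2.63, adjusted p 1.9e-05). The water channel Aqp12, found in acinar cells, was at 1418 and 1450.0 TPM in saline and 229 and 177 TPM in polyI:C AP (difference -2.83, adjusted p 5.3e-05). All 3 genes had no overlap between the groups.

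Some regulators of the acinar cell were close to the saline level although they were low in AP. Cckar, the cholecystokinin receptor on which caerulein acts, was at 612 and 653 TPM in saline, 166 and 184 TPM in AP and 517 and 594 TPM in polyI:C AP. Against saline the polyI:C AP difference was -0.19 (95% interval -0.45 to 0.07, adjusted p 0.21), and against AP it was 1.66 (adjusted p 0.0037). Rbpjl, a subunit of the acinar transcription complex PTF1, was at 196 and 191 TPM, against 238 and 195 TPM in saline and 104 and 79.8 TPM in AP. Its interval against saline ran from -0.52 to 0.22, and the groups overlapped. After scaling the differences from saline were -0.67 for Cckar and -0.63 for Rbpjl, still short of 2-fold. Bhlha15, which encodes the acinar maturation factor MIST1, was between the other groups, at 391 and 326 TPM in saline, 161 and 171 TPM in polyI:C AP and 53.6 and 46.4 TPM in AP. Without saline mouse 1 its difference from saline was -0.97, short of 2-fold. With all mice it was reduced against saline (difference -1.10, SE 0.12, adjusted p 0.00091) and raised against AP (difference 1.73, adjusted p 0.004). The calls of these genes against AP were lost without either AP mouse and without either polyI:C AP mouse. That of Rbpjl was also lost without either saline mouse. Cckar, Rbpjl and Bhlha15 were picked for mention after their values were seen.

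Some enzymes of amino acid and methyl group metabolism were reduced as well. Of 20 tested genes of this group, 7 were reduced and 1 raised (10 and 0 after scaling), with a median difference of -0.56. Gnmt, the methyltransferase that disposes of S-adenosylmethionine, was at 803 and 1002 TPM in saline and 28.7 and 31.0 TPM in polyI:C AP (difference -4.89, SE 0.21, adjusted p 3.4e-05). Mat1a, which makes S-adenosylmethionine and was named among the largest falls, was at 1045 and 1342 TPM and 91.8 and 98.3 TPM (difference -3.63, SE 0.13, adjusted p 2.3e-05). Gamt, of creatine synthesis, was at 323 and 281 TPM in saline, 45.6 and 45.6 TPM in AP and 86.4 and 103 TPM in polyI:C AP, reduced against saline (difference -1.67, adjusted p 0.00025) and above AP (difference 1.04, adjusted p 0.024). The glutamine carrier Slc38a5, which was not on this list, was at 355 and 276 TPM in saline, 71.5 and 51.7 TPM in AP and 21.3 and 17.8 TPM in polyI:C AP. It was reduced against both (differences -3.97 and -1.62, adjusted p 5.7e-05 and 0.022). None of these genes overlapped between polyI:C AP and saline.

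Duct-like epithelial genes stood high. Of 36 tested ductal and metaplastic genes, 23 were raised and 1 reduced (17 and 1 after scaling), with a median difference of 2.02 that compares with 1.88 in AP against saline, where 3053 genes (18.2%) were raised and 677 (4.03%) reduced. Cldn4, a claudin of tight junctions, showed the largest rise by the naming rule (ENSMUSG00000047501, chr5:134945119-134946934 on GRCm38, a protein-coding gene). It was at 21.1 and 10.2 TPM in saline and 2065 and 2016 TPM in polyI:C AP, a 130.3-fold higher mean (difference 7.07, SE 0.30, adjusted p 3.4e-05). Its level in AP was 2035 and 2537 TPM, and the polyI:C AP mice differed from AP by -0.16 (adjusted p 0.88, 95% interval -0.88 to 0.57). Of 6 keratin genes, 5 were raised. Krt8 and Krt18, the partner keratins of simple epithelia, were both abundant. Krt8 was at 889 and 983 TPM in saline and 15477 and 11814 TPM in polyI:C AP (difference 3.85, SE 0.16, adjusted p 3.1e-05), and Krt18 at 1038 and 1346 TPM and 12431 and 9038 TPM (difference 3.16, SE 0.19, adjusted p 9.8e-05). The duct keratin Krt19 was at 51.2 and 62.4 TPM and 767 and 769 TPM (difference 3.75, SE 0.11, adjusted p 1.7e-05). Krt20, a keratin of intestinal and urothelial cells, was at 0.711 and 1.75 TPM, 78.9 and 93.0 TPM and 124 and 191 TPM in saline, AP and polyI:C AP (difference from saline 6.55, adjusted p 5.5e-05). Every one of these genes was higher in both polyI:C AP mice than in both saline mice.

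The epithelial adhesion genes Epcam and Cdh1 were raised too, at 826 and 959 TPM and 706 and 705 TPM in polyI:C AP against 120.2 and 117 TPM and 142 and 104 TPM in saline (differences 2.90 and 2.53, adjusted p 2.2e-05 and 0.00011). Of the factors that mark duct and progenitor cells, Sox4 was raised (6.14 and 5.27 TPM in saline and 42.0 and 48.5 TPM in polyI:C AP, difference 2.88, adjusted p 4.1e-05). Sox9, the duct factor, was at 20.04 and 9.17 TPM in saline and 21.5 and 25.2 TPM in polyI:C AP and did not pass (difference 0.75, adjusted p 0.12), although it passed without saline mouse 1 (difference 1.30, adjusted p 0.0069). The 1 reduced gene was Tff2, a trefoil peptide that protects mucosa, at 34939.9 and 36643 TPM in saline, 8229 and 7063 TPM in AP and 3902 and 3388 TPM in polyI:C AP. It was reduced against saline (difference -3.30, SE 0.12, adjusted p 2.5e-05) and against AP (difference -1.07, adjusted p 0.02). Without polyI:C AP mouse 2, 17 of the 36 genes were raised.

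**Figure D3:**
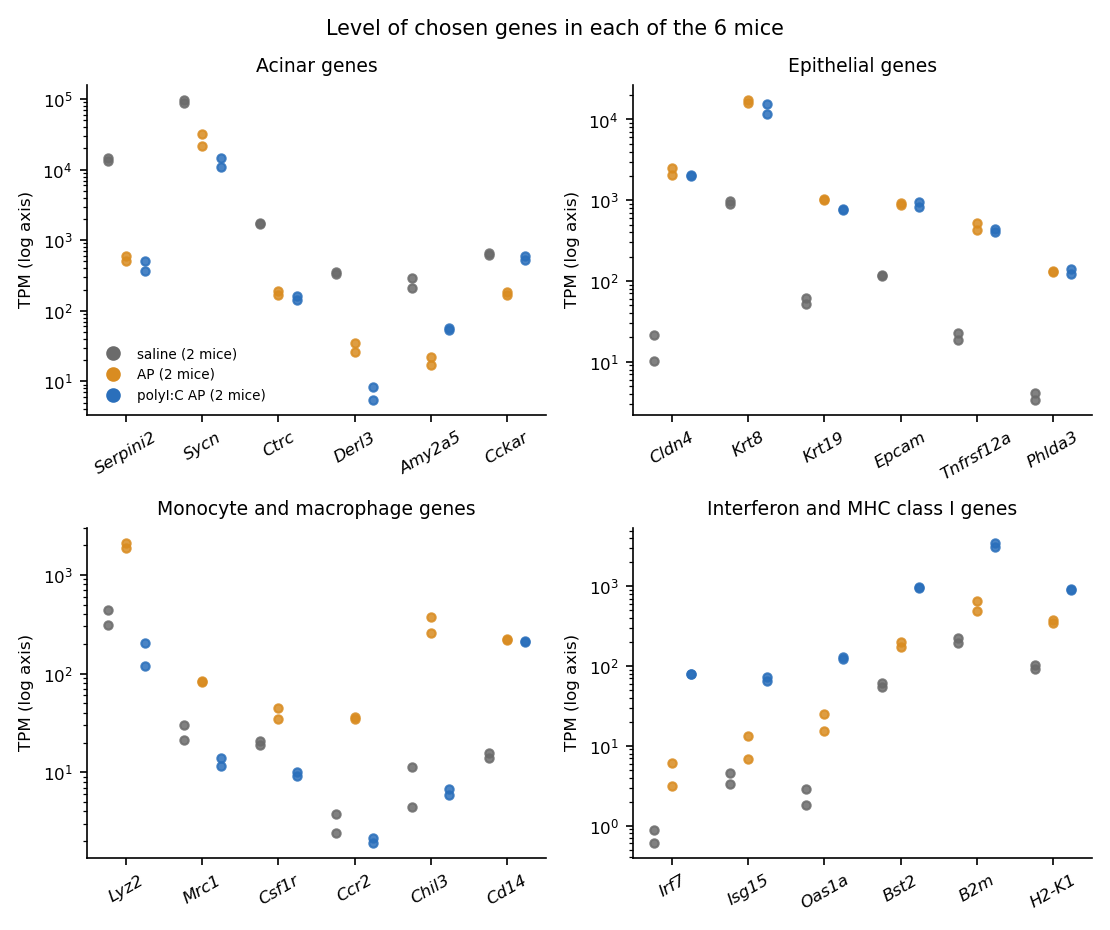
TPM (log axis) of 24 genes in each of the 6 mice, with 2 points per group and gene, grouped as acinar genes, epithelial genes, genes of monocytes and macrophages, and interferon and MHC class I genes. Serpini2 and Ctrc are near the AP level in polyI:C AP, Cckar is near the saline level, Cldn4 and Krt8 are near the AP level, Lyz2 and Csf1r lie below saline, and Irf7 and B2m lie above both other groups.

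Of the Reg family and other stress proteins of the pancreas, 4 of 5 tested genes were raised as deposited and after scaling, and 2 without polyI:C AP mouse 1. Reg3a, a secreted lectin, was at 2907 and 738 TPM in saline, 2829 and 2387 TPM in AP and 19166 and 22317 TPM in polyI:C AP (difference 3.82, SE 0.56, adjusted p 0.0024). Reg3g was at 617 and 79.5 TPM in saline and 4528 and 6056 TPM in polyI:C AP (difference 4.56, SE 0.82, adjusted p 0.0055). For both genes the saline mice lay far apart, and both were below both polyI:C AP mice. Without polyI:C AP mouse 1 the adjusted p was 0.057 for Reg3a, and for Reg3g it was 0.082 without mouse 1 and 0.079 without mouse 2. Reg3d, in contrast, was at 4415 and 4477 TPM in saline, 825 and 774 TPM in AP and 3598 and 3758 TPM in polyI:C AP, 2.20 above AP (adjusted p 0.0011) and -0.27 from saline (adjusted p 0.043), short of 2-fold.

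Genes of endoplasmic reticulum stress moved both ways. Of 28 tested genes of the unfolded protein response, 4 were raised and 4 reduced (3 and 9 after scaling), with a median of -0.18. Each count of 4 was 14.3% of the list. Over all tested genes 16.9% were raised and 2.97% reduced, so as deposited rises were not more frequent on this list. All 4 that rose encode transcription factors and stress effectors, and 3 of the 4 that fell encode chaperones and folding enzymes. Atf3, a stress-induced transcription factor, was at 2.05 and 6.31 TPM in saline and 68.0 and 50.6 TPM in polyI:C AP (difference 3.83, SE 0.42, adjusted p 0.00082), and the stress-induced pseudokinase Trib3 at 6.70 and 7.97 TPM and 55.4 and 40.1 TPM (difference 2.61, adjusted p 0.00024). In the other direction, the oxidase Ero1lb, which forms disulphide bonds in secretory proteins, was at 2097 and 2095 TPM and 319 and 325 TPM (difference -2.70, SE 0.14, adjusted p 5.8e-05). The main chaperone of the compartment, Hspa5 (BiP), was at 895 and 1085 TPM in saline and 952 and 807 TPM in polyI:C AP, and these overlapped (difference -0.17, 95% interval -0.48 to 0.14, adjusted p 0.35).

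Immediate early genes were above saline. Of 19 tested immediate early and AP-1 genes, 11 were raised and none reduced (10 and 0 after scaling), with a median of 1.59. Junb was at 15.2 and 8.42 TPM in saline and 179 and 150.2 TPM in polyI:C AP (difference 3.80, SE 0.25, adjusted p 0.00014), and the MAP kinase phosphatase Dusp4 at 2.75 and 2.77 TPM and 29.9 and 32.9 TPM (difference 3.29, adjusted p 7.4e-05). Of 18 NF-kB and STAT3 feedback genes, 12 were raised and none reduced (11 and 0 after scaling). Among them Nfkb2, the precursor of the p52 subunit, was at 13.2 and 12.7 TPM and 119.7 and 113 TPM (difference 3.12, SE 0.10, adjusted p 1.9e-05), and Tnip1, which restrains NF-kB together with A20, at 3.15 and 3.69 TPM and 43.1 and 41.8 TPM (difference 3.46, adjusted p 2.3e-05). None of these 4 genes overlapped between the groups, and none passed the test between polyI:C AP and AP (adjusted p 0.66, 0.73, 0.68 and 0.069).

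Genes of the p53 response and of cell death rose. Of 29 tested, 22 were raised and 1 reduced (18 and 1 after scaling), with a median of 2.00, against 1.72 in AP. Of the 16 p53 targets among them 14 were raised. Phlda3, an inhibitor of AKT, was at 4.10 and 3.36 TPM in saline, 132 and 128 TPM in AP and 141 and 123 TPM in polyI:C AP (difference 4.97, SE 0.14, adjusted p 1.7e-05). The receptor gene Eda2r was at 1.55 and 2.80 TPM in saline and 59.6 and 54.2 TPM in polyI:C AP (difference 4.46, adjusted p 9.4e-05). Tnfrsf12a, the receptor of the cytokine TWEAK, was at 18.5 and 22.7 TPM and 437 and 399.6 TPM (difference 4.32, SE 0.14, adjusted p 1.9e-05). Of 13 genes of apoptosis and necroptosis 8 were raised, among them Mlkl, the membrane-breaking effector of necroptosis, at 1.89 and 3.72 TPM and 52.6 and 45.1 TPM (difference 3.95, SE 0.28, adjusted p 0.00017). The 1 reduced gene was Sesn1, a stress-induced brake on mTORC1, at 291 and 391.6 TPM in saline and 95.9 and 48.6 TPM in polyI:C AP (difference -2.30, adjusted p 0.0016). Of the genes named, each polyI:C AP mouse was on the same side of both saline mice.

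Antioxidant genes rose, and the phagocyte oxidase genes mostly did not. Of 24 Nrf2 targets and antioxidants, 17 were raised and none reduced (14 raised after scaling). The glutathione synthesis subunit Gclc was at 39.5 and 35.6 TPM in saline and 773 and 509.7 TPM in polyI:C AP (difference 4.05, SE 0.21, adjusted p 6.2e-05), and sulfiredoxin, Srxn1, at 14.1 and 10.7 TPM and 258 and 237 TPM (difference 4.28, adjusted p 2.3e-05). Haem oxygenase 1, Hmox1, was at 6.43 and 5.03 TPM, 68.9 and 69.8 TPM and 39.1 and 38.1 TPM in saline, AP and polyI:C AP (difference from saline 2.66, adjusted p 0.00011). Of the 6 genes of the phagocyte NADPH oxidase, which myeloid cells carry, 1 (Cyba, which other cells also express) was raised in polyI:C AP against saline and 5 in AP against saline. Over all tested genes 16.9% and 18.2% were raised in these comparisons. Cybb, its catalytic subunit, was at 7.35 and 4.34 TPM in saline, 19.8 and 20.2 TPM in AP and 4.77 and 5.49 TPM in polyI:C AP, -0.13 from saline (adjusted p 0.7) and -1.87 from AP (adjusted p 0.026).

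Cytoskeletal genes rose, and matrix genes in part. Of 51 genes of actin, integrins and YAP targets, 34 were raised and none reduced (25 raised after scaling), with a median of 1.65. The actin crosslinker Actn1 was at 75.6 and 55.9 TPM in saline and 569 and 519 TPM in polyI:C AP (difference 3.05, SE 0.15, adjusted p 5.7e-05), annexin A2, Anxa2, at 29.1 and 25.9 TPM and 394 and 347 TPM (difference 3.73, adjusted p 2.6e-05), and the collagen receptor subunit Itga2 at 1.63 and 2.00 TPM and 29.3 and 29.6 TPM (difference 3.70, adjusted p 2.6e-05). Groups did not overlap for these genes. Of the 9 YAP and TEAD targets 1 was raised as deposited (Ccn1, difference 1.03, adjusted p 0.028) and none after scaling. Ccn1 lost its call with any 1 of the 6 mice left out, with differences of 0.78 to 1.27 and adjusted p of 0.065 to 0.15. Of 42 stellate cell and matrix genes, 18 were raised and none reduced (10 and 1 after scaling), with a median of 1.08, against 1.55 in AP. The count of 18 fell to 8 and 10 without polyI:C AP mouse 1 and mouse 2 (1 reduced without mouse 2) and to 11 without saline mouse 2. Col7a1, the collagen of anchoring fibrils, which was on none of the lists, was at 110.4 and 118 TPM in saline, 91.0 and 93.1 TPM in AP and 39.98 and 38.3 TPM in polyI:C AP, and so was reduced against saline (difference -1.53, SE 0.09, adjusted p 7.8e-05) and against AP (difference -1.22, adjusted p 0.0037).

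Cytokine genes rose in part. Of 28 tested cytokine and chemokine genes, 14 were raised and none reduced (12 and 1 after scaling), with a median of 1.63, against 2.34 in AP. The count was 9 without either polyI:C AP mouse. Ccl2, the chemokine that recruits monocytes bearing CCR2, was at 2.15 and 0.441 TPM in saline, 134 and 124 TPM in AP and 11.99 and 18.3 TPM in polyI:C AP, raised against saline (difference 3.28, SE 0.47, adjusted p 0.0021) and reduced against AP (difference -3.08, adjusted p 0.041). Cxcl1, a chemokine for neutrophils, was at 0.243 and 0.298 TPM in saline and 5.67 and 3.54 TPM in polyI:C AP (difference 2.70, SE 0.40, adjusted p 0.0026), and the membrane-bound chemokine Cxcl16 at 3.29 and 2.19 TPM and 40.5 and 41.9 TPM (difference 3.71, adjusted p 6.2e-05). Il1b was at 0.291 and 0 TPM and 1.62 and 1.03 TPM and did not pass (adjusted p 0.08), and Cxcl2, at 0 and 0.0571 TPM in polyI:C AP, was too low to be tested. For Ccl2, Cxcl1 and Cxcl16 both polyI:C AP mice were above both saline mice. Of 8 tested neutrophil genes 1 was raised and none reduced, with a median of 1.63 beside 0.48 over all genes. The count was 3 without saline mouse 1 and 2 without polyI:C AP mouse 2. The raised gene was Lcn2, which epithelium makes too, at 1.84 and 0 TPM in saline and 25.04 and 42.4 TPM in polyI:C AP (difference 4.94, adjusted p 0.0018).

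Monocyte and macrophage genes were high in AP and near saline in polyI:C AP. In AP against saline 32 of 46 tested marker genes were raised and none reduced. In polyI:C AP against saline 11 were raised and 4 reduced (6 and 6 after scaling), with a median of 0.43 beside 0.48 over all genes, against 2.32 in AP. In polyI:C AP against AP 15 were reduced and none raised with all mice (68 of all genes, 0.404%). The 15 became 0 without AP mouse 1, AP mouse 2 or polyI:C AP mouse 2 (27, 21 and 26 at an unadjusted p of at most 0.05 with limma, beside 34 with all mice) and 2 without polyI:C AP mouse 1. Summed over the list, the markers were at 1064 and 623 TPM in saline, 3897 and 4702 TPM in AP and 1121 and 925 TPM in polyI:C AP. One polyI:C AP mouse lay within the saline range and the other just above it. In caerulein mice the paper reported by flow cytometry that polyI:C lowered infiltrating neutrophils and left infiltrating macrophages unaffected. Flow cytometry counts cells by surface markers, while the values here are RNA of whole pancreas. The reason for this difference was not tested. The part of macrophage numbers in other results was not tested. Lyz2, the lysozyme of monocytes and macrophages, was at 444 and 307 TPM in saline, 1891 and 2118 TPM in AP and 203 and 119 TPM in polyI:C AP, so the polyI:C AP mice lay below both other groups (against saline difference -1.24, SE 0.27, adjusted p 0.012, against AP difference -3.68, adjusted p 0.0044). F13a1, the clotting factor XIII subunit that resident macrophages make, was at 50.6 and 28.7 TPM, 148 and 155 TPM and 14.3 and 12.5 TPM (against saline difference -1.48, SE 0.24, adjusted p 0.0037, against AP difference -3.45, adjusted p 0.0037). These 2 genes and H2-Aa were the 3 of all tested genes that were reduced in polyI:C AP and raised in AP, each against saline.

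Other monocyte and macrophage genes lay at or just under the saline level. Csf1r, the receptor for the growth factor CSF1, was at 20.9 and 19.0 TPM in saline, 34.3 and 44.5 TPM in AP and 10.02 and 9.26 TPM in polyI:C AP (against saline difference -1.01, adjusted p 0.003). Mrc1, the mannose receptor, was at 30.4 and 21.05 TPM, 82.2 and 84.7 TPM and 13.8 and 11.4 TPM, with a difference from saline of -0.98 (adjusted p 0.0065), just short of 2-fold, and of -1.24 without saline mouse 2 and -1.44 after scaling, past it. Ccr2 was at 3.76 and 2.40 TPM in saline, 36.2 and 34.4 TPM in AP and 2.17 and 1.92 TPM in polyI:C AP, where the 95% interval against saline ran from -0.95 to 0.01 (adjusted p 0.11) and the difference from AP was -3.82 (adjusted p 0.0027). Chil3, a chitinase-like protein of inflammatory macrophages, was at 11.2 and 4.47 TPM, 256 and 374 TPM and 5.89 and 6.73 TPM, with a difference of -5.51 from AP (adjusted p 0.0037). The complement C5a receptor gene C5ar1 was at 0.862 and 0.303 TPM, 9.85 and 12.4 TPM and 0.755 and 1.09 TPM, and polyI:C AP overlapped saline (adjusted p 0.43). Against that, Cd14, the co-receptor for lipopolysaccharide, was at 15.7 and 13.9 TPM in saline and 216 and 209 TPM in polyI:C AP (difference 3.80, SE 0.10, adjusted p 1.7e-05) and 218 and 222 TPM in AP.

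Calls below saline among these genes changed with single mice. Without polyI:C AP mouse 2 none of the 4 reduced macrophage genes passed and 6 were raised. The count of 4 was 1 without saline mouse 1, without AP mouse 1 or without AP mouse 2, 2 without polyI:C AP mouse 1 and 7 without saline mouse 2, and the count of 11 was 4 without polyI:C AP mouse 1 and 7 without either AP mouse. For Lyz2 the adjusted p was 0.091 without saline mouse 1 and 0.083 without polyI:C AP mouse 2, with differences of -0.98 and -0.86. Without AP mouse 1 and mouse 2 it was 0.067 and 0.064. For F13a1 it was 0.06 and 0.06 without polyI:C AP mouse 1 and mouse 2. For Csf1r the difference was -0.94 without saline mouse 1 and -0.96 without polyI:C AP mouse 2, both short of 2-fold. The direction of all 3 was the same in each of these fits.

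MHC class II genes, which dendritic cells, B cells and activated macrophages use to present antigen to CD4 T cells, were likewise low. Of 9 tested, 2 were reduced and none raised (7 reduced after scaling), with a median of -1.14, against 0.95 in AP. H2-Aa, an alpha chain, was at 34.1 and 28.8 TPM in saline, 56.8 and 106 TPM in AP and 14.5 and 10.1 TPM in polyI:C AP (against saline difference -1.33, SE 0.31, adjusted p 0.014, against AP difference -2.62, adjusted p 0.021). Cd74, the invariant chain, was at 63.3 and 44.2 TPM, 74.8 and 144 TPM and 20.95 and 26.8 TPM (against saline difference -1.14, adjusted p 0.033). Both polyI:C AP mice lay below both saline mice for both genes, but with any 1 of the 4 mice of the comparison left out no MHC class II gene passed. The adjusted p for H2-Aa was then 0.1 and 0.069 without saline mouse 1 and mouse 2, and 0.075 and 0.13 without polyI:C AP mouse 1 and mouse 2. For Cd74 these values were 0.19, 0.074, 0.24 and 0.12. Of 5 dendritic cell and 9 B and plasma cell genes tested, none was called as deposited, and 1 dendritic cell gene was reduced after scaling.

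Interferon-stimulated genes were high in polyI:C AP. Of 60 tested, 53 were raised and none reduced (47 raised after scaling), with a median of 2.69, against 1.496 in AP. With all mice 15 of the 60 were also raised in polyI:C AP against AP (0.44% of all genes). No interferon-stimulated gene was called against AP without AP mouse 1, AP mouse 2, polyI:C AP mouse 1 or polyI:C AP mouse 2 (19, 36, 22 and 20 raised at an unadjusted p of at most 0.05 with limma, beside 29 with all mice), and 7 and 6 were without saline mouse 1 and mouse 2. Without polyI:C AP mouse 2 the count of 53 was 40. Irf7, the transcription factor that amplifies interferon production (ENSMUSG00000025498, chr7:141262706-141266481 on GRCm38, a protein-coding gene), was at 0.604 and 0.878 TPM in saline, 3.15 and 6.14 TPM in AP and 79.0 and 79.2 TPM in polyI:C AP (difference from saline 6.01, SE 0.28, adjusted p 4.2e-05). Its mean was 107-fold higher than in saline, but this ratio rests on low saline values. In the saline mice 1 read in a gene of median length was worth 0.216 and 0.265 TPM. Against AP the difference was 4.01 (adjusted p 0.0037). Oas1a, which makes the 2-5A that activates RNase L on sensing double-stranded RNA, was at 2.91 and 1.79 TPM, 15.1 and 25.1 TPM and 123 and 129 TPM (against saline difference 5.50, SE 0.28, adjusted p 5.9e-05, against AP difference 2.66, adjusted p 0.016). The ubiquitin-like protein gene Isg15 was at 4.53 and 3.34 TPM, 6.81 and 13.2 TPM and 65.6 and 73.8 TPM (against saline difference 3.99, SE 0.36, adjusted p 0.00039, against AP difference 2.81, adjusted p 0.025). The groups kept one order for each, with the saline mice lowest, AP mice between and polyI:C AP mice highest, without overlap. Tlr3 itself was at 1.10 and 0.783 TPM in saline, 10.1 and 6.29 TPM in AP and 9.12 and 8.64 TPM in polyI:C AP, raised against saline (difference 2.71, adjusted p 0.00062) and not separable from AP (difference 0.15, 95% interval -0.51 to 0.81).

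Of the antiviral effectors, 27 of 28 were raised. Ifit1, which binds viral RNA caps, was at 1.29 and 3.17 TPM in saline, 4.05 and 9.61 TPM in AP and 62.2 and 63.7 TPM in polyI:C AP (difference 4.63, SE 0.45, adjusted p 0.00052, against AP difference 3.23, adjusted p 0.031). Its neighbour in the same gene cluster, Ifit3b, was at 1.37 and 0.842 TPM, 3.28 and 4.81 TPM and 51.3 and 39.7 TPM (difference 4.85, SE 0.28, adjusted p 9.2e-05), but Ifit3 and Ifit3b are close copies and the split of reads between them is uncertain. Bst2, tetherin, was at 62.0 and 53.9 TPM, 172 and 202 TPM and 961 and 994 TPM (difference 4.07, SE 0.12, adjusted p 1.7e-05). Ly6a (Sca-1), a surface protein induced by interferon, was at 9.72 and 12.9 TPM, 61.8 and 85.9 TPM and 375 and 429 TPM (difference 5.10, SE 0.20, adjusted p 2.9e-05). All 4 were higher in both polyI:C AP mice than in any other mouse.

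The promoters of 4 of these genes are shown because type I interferon acts on a short DNA motif, the interferon-stimulated response element. These 4 genes were raised against saline, and against AP with all mice. They were picked by hand from the 15 interferon-stimulated genes raised against AP, and all 4 hold the motif searched. Irf7, raised in both comparisons too, was not among the genes found to hold it, and a gene without a promoter window could not be searched. The motif searched was GAAANNGAAA on both strands (its reverse complement is TTTCNNTTTC), in the window from 250 bases before to 50 bases after the start of each gene in RefSeq on GRCm38.p6. Of all genes with such a window 1079 of 27025 (3.99%) held it, and of the 47 genes on the interferon list with one 29 did (61.7%). The window of Isg15 lies at chr4:156200769-156201068 and that of Oas1a at chr5:120907476-120907775, both on the minus strand. The window of Ifit3b lies at chr19:34607707-34608006 and that of Ifit1 at chr19:34640639-34640938, both on the plus strand. Capitals mark the matches, which overlap one another in Isg15 (3 matches) and Oas1a (2 matches). A match describes the letters and is not a mapped site.
Isg15: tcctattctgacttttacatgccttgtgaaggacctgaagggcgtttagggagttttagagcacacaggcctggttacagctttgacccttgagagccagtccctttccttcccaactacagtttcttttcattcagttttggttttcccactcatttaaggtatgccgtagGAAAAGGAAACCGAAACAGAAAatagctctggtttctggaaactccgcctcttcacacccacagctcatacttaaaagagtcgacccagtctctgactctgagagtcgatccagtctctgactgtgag
Oas1a: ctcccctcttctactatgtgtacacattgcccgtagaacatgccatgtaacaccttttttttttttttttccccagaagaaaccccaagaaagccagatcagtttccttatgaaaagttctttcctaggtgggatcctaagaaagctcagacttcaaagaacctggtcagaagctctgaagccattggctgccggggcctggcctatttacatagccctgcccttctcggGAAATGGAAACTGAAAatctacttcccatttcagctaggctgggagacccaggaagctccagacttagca
Ifit3b: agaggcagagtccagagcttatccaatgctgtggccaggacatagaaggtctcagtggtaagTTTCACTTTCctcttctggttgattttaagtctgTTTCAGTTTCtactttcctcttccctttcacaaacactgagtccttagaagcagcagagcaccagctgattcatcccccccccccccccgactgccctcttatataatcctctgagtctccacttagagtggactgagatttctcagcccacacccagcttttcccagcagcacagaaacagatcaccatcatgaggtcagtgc
Ifit1: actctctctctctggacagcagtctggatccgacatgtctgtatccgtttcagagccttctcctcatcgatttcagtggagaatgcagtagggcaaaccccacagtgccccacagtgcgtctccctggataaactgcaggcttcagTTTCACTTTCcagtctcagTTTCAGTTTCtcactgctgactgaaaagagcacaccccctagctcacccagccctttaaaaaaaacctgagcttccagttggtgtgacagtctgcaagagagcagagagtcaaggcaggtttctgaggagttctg

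MHC class I genes rose. Of 16 tested, 15 were raised, as deposited and after scaling, with a median of 3.14, against 1.90 in AP. With all mice 6 were raised against AP. None was called without AP mouse 1, AP mouse 2, polyI:C AP mouse 1 or polyI:C AP mouse 2 (6, 9, 6 and 9 raised at an unadjusted p of at most 0.05 with limma, beside 8 with all mice), and 2 were without either saline mouse. B2m, the light chain shared by all class I molecules, was at 222 and 193 TPM in saline, 494 and 659 TPM in AP and 3138 and 3521 TPM in polyI:C AP (against saline difference 4.001, SE 0.16, adjusted p 2.8e-05, against AP difference 2.54, adjusted p 0.0037). The heavy chain H2-K1 was at 101.7 and 92.0 TPM, 348 and 379 TPM and 918 and 911 TPM (against saline difference 3.23, SE 0.09, adjusted p 1.7e-05, against AP difference 1.33, adjusted p 0.0037), and Tap1, a subunit of the peptide transporter, at 2.91 and 4.88 TPM, 27.0 and 29.1 TPM and 48.0 and 43.7 TPM (against saline difference 3.43, adjusted p 0.00011). Class I heavy chain genes are similar in sequence, so reads may have been shared among them. The 1 gene that was not called was Psmb10, an immunoproteasome subunit, at 161 and 153 TPM and 128 and 136 TPM (difference -0.25, adjusted p 0.095). The searched motif was in 3 of the 14 class I promoters in the RefSeq table.

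Gzma, the granzyme of cytotoxic lymphocytes and natural killer cells (ENSMUSG00000023132, chr13:113093825-113100981 on GRCm38, a protein-coding gene), was listed at 0 in both saline and both AP mice and at 26.9 and 47.0 TPM in the polyI:C AP mice (difference 6.17, SE 0.37, adjusted p 9.7e-05), so no fold is given. Gzmb, of the same cells, was listed at 0 in both saline mice, at 0.660 and 0.522 TPM in AP and at 4.57 and 3.85 TPM in polyI:C AP (difference 3.23, adjusted p 0.0062). Both polyI:C AP mice were above all other mice for both genes. Of the 8 genes of T and natural killer cells that could be tested, these 2 were raised and the other 6 were not called. Cd3d, a part of the T cell receptor complex, was at 2.80 and 1.53 TPM in saline and 0.866 and 0.275 TPM in polyI:C AP (adjusted p 0.18).

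**Figure D4:**
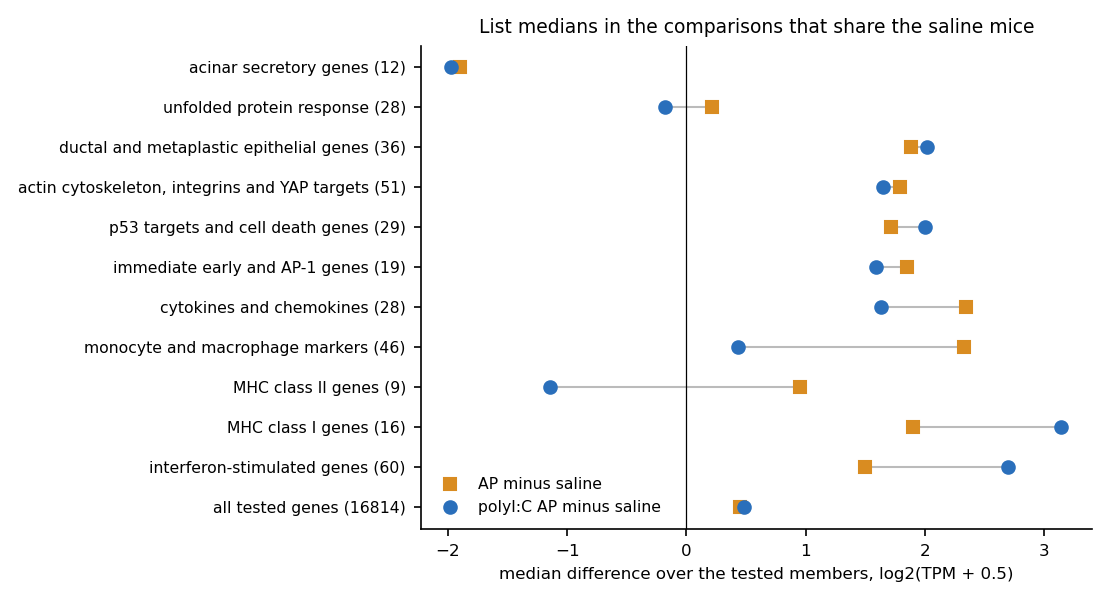
Median difference from saline, on log2(TPM + 0.5), over the tested members of 11 gene lists and over all tested genes, for AP (squares) and polyI:C AP (circles), which share the saline mice. Acinar, epithelial, cytoskeletal and p53 medians lie close together, the macrophage and MHC class II medians are lower in polyI:C AP (0.43 and -1.14) than in AP (2.32 and 0.95), and the interferon and MHC class I medians are higher (2.69 and 3.14 against 1.496 and 1.90).

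Metabolic genes changed in part. Of 16 glycolysis genes 10 were raised and none reduced (6 and 1 after scaling), with a median of 1.13. Ldha, lactate dehydrogenase A, was at 47.2 and 51.5 TPM in saline and 170.0 and 208 TPM in polyI:C AP (difference 1.92, SE 0.13, adjusted p 0.00014), and the pyruvate kinase gene Pkm at 82.1 and 80.1 TPM and 255 and 283 TPM (difference 1.72, adjusted p 7.0e-05). Neither gene overlapped between the groups. Of 24 genes of fatty acid and cholesterol metabolism 9 were raised and 2 reduced (3 and 2 after scaling), and none was reduced without saline mouse 2 or without polyI:C AP mouse 2. Among those raised was the cholesterol synthesis enzyme Hmgcs1 at 39.6 and 42.5 TPM and 128 and 147 TPM (difference 1.73, adjusted p 0.00011). Of 25 genes of mitochondrial respiration 1 was raised and 1 reduced (0 and 2 after scaling). Of 31 ribosomal protein genes none was called as deposited (2 reduced after scaling). The medians of these lists were 0.21 and -0.05. Ndufa1, a subunit of complex I, was the reduced one, at 739 and 681 TPM and 269 and 321 TPM (difference -1.27, adjusted p 0.00064).

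Of 24 cell cycle genes 8 were raised and none reduced (7 raised after scaling). The replication licensing genes Mcm3 to Mcm7 all rose, with Mcm6 at 7.93 and 8.93 TPM in saline, 73.4 and 75.4 TPM in AP and 55.2 and 54.9 TPM in polyI:C AP (difference 2.64, SE 0.11, adjusted p 2.9e-05). Mki67, the proliferation marker, was at 1.72 and 2.28 TPM in saline and 1.84 and 14.2 TPM in polyI:C AP and did not pass (adjusted p 0.24): mouse 2 was above and mouse 1 within the saline values. Its adjusted p was 0.016 without polyI:C AP mouse 1 and 0.89 without mouse 2. Without mouse 2 the count of 8 was 5, and Mcm4 had an adjusted p of 0.064.

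Other cell types of the gland gave few calls. Of 17 endothelial markers none was called, with a median of 0.10. Of the 16 islet genes 1 was reduced, Ins2, an insulin gene, at 378 and 260.0 TPM in saline and 95.9 and 188 TPM in polyI:C AP (difference -1.22, adjusted p 0.025). It lost its call without either saline mouse (adjusted p 0.16 and 0.062), without polyI:C AP mouse 1 (0.15) and without AP mouse 1 or mouse 2 (0.098 and 0.094). After scaling 6 islet genes were reduced. Of 6 endothelial activation genes 3 were raised. Complement and acute phase genes gave 5 raised (3 without polyI:C AP mouse 1) and 1 reduced of 15, and the circadian clock genes 1 raised of 18. After scaling the complement and acute phase list gave 2 raised and 1 reduced, and the clock list 1 raised and 3 reduced. Schwann cell and neuron markers gave 1 raised of 6, and none of 11 adipocyte and mesothelial and 3 mast cell genes was called. Of 8 erythroid and platelet genes 3 were reduced, all globins, of which Hba-a1 was at 55.1 and 43.8 TPM and 13.8 and 10.9 TPM (difference -1.96, adjusted p 0.0037). Globin genes are close copies, and without polyI:C AP mouse 2 none of the 3 passed (adjusted p for Hba-a1 0.052).

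**Figure D5:**
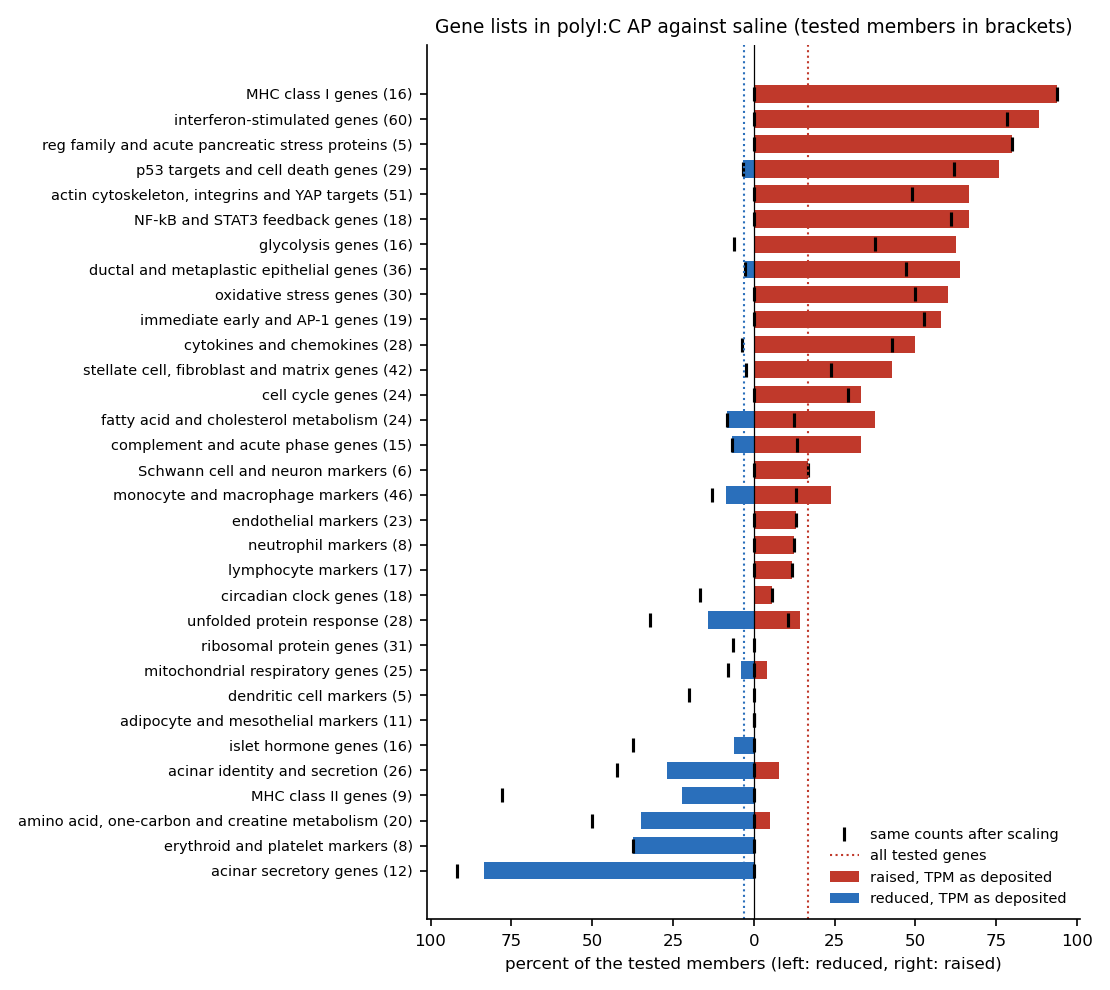
Percent of the tested members of each gene list that were called raised (right) and reduced (left) in polyI:C AP against saline, with black ticks for the calls after scaling and dotted lines for all tested genes (16.9% and 2.97%). MHC class I and interferon-stimulated genes stand at the top and acinar secretory genes at the bottom, and scaling moves MHC class II and islet genes to the left.

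Beyond the genes above, the largest rises by the naming rule included Slc26a9, a chloride channel of epithelia, at 0 and 0.134 TPM in saline and 26.7 and 26.8 TPM in polyI:C AP, and Kel, the Kell blood group protease, at 0.364 and 0 TPM and 39.4 and 40.5 TPM (adjusted p 1.9e-05 and 3.4e-05). In AP they were at 24.7 and 31.3 TPM and 46.7 and 48.0 TPM. The protein C receptor gene Procr was at 7.31 and 6.90 TPM in saline, 299.8 and 246 TPM in AP and 127 and 105 TPM in polyI:C AP, so it was raised against saline (difference 3.93, SE 0.14, adjusted p 2.3e-05) and reduced against AP (difference -1.23, adjusted p 0.02). Among the largest falls were Gal, the neuropeptide galanin, at 342 and 216 TPM and 24.1 and 27.7 TPM (difference -3.37, adjusted p 0.00023), and the protocadherin Fat3 at 24.3 and 23.6 TPM and 1.77 and 1.68 TPM (difference -3.46, adjusted p 2.3e-05). All tested genes considered, 12 were reduced and 37 raised in polyI:C AP against both saline and AP with all mice, and none without AP mouse 1, AP mouse 2 or polyI:C AP mouse 2, since no gene then passed against AP. Apoe, an apolipoprotein that macrophages make, was one of the 12, at 105 and 97.5 TPM in saline, 102.4 and 145 TPM in AP and 54.9 and 37.7 TPM in polyI:C AP (against saline difference -1.14, adjusted p 0.0077). It lost its call without saline mouse 1, without saline mouse 2 and without polyI:C AP mouse 2 (differences -1.09, -1.19 and -0.87, adjusted p 0.061, 0.051 and 0.067).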

How the data were processed

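RNA-seq of pancreas from 6 mice was analysed, 2 each of saline, AP and polyI:C AP. The deposited tables, 1 per mouse, hold TPM that the authors made after trimming with Trimmomatic, mapping to mm10 with STAR and counting with HTSeq, and the submitters' notes also name DESeq2. The gene lengths behind the TPM are not given in the sources used here. The study's methods name a stranded mRNA kit (TruSeq), and the labels name that kit and also ribosomal depletion.

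Values were transformed to log2(TPM + 0.5) and fitted with limma 3.58.1 in R 4.3.3 over all 6 mice. Of 22556 genes, 16814 whose mean reached 1 TPM were tested. The prior variance followed log2(mean TPM × exon length + 1), with exon lengths from GENCODE M21, and p-values were adjusted by the Benjamini-Hochberg method over all tested genes. A call needed an adjusted p no higher than 0.05 together with a change of 2-fold or more. The scaled alternative divided each library by its median ratio to the geometric mean of all 6 libraries, over tested genes above 0 in all of them. The code was tested on simulated data. TPM keep no exact depth, so reads were estimated from the spacing of low values.

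The comparison and the gene lists were chosen with earlier results of these data known. Named genes were the 12 largest rises and falls among abundant protein-coding genes, up to 4 of each direction and the 2 most abundant per list, up to 8 genes below or above both saline and AP or opposite to AP, the 6 most abundant called genes of each direction, and genes that the study's text names. Genes named outside this rule were chosen after their values were seen, and some genes that the rule names are not reported here. Figures were drawn with matplotlib 3.10.9.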

Additional observations from a re-analysis of the deposited data

How the results depend on the processing

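Against 2838 raised and 500 reduced genes, median-of-ratios scaling gave 1281 and 1016, limma voom on estimated reads gave 1503 and 812, no limit on fold change gave 5617 and 975, and a fold change of at least 4 gave 772 and 157. The last 2 change the threshold itself, and for scaling and voom the cause was not tested. With 1 mouse left out in turn the counts ran from 2166 to 2893 and from 342 to 451, with the lone mouse of a group assumed to vary like the other groups. An unadjusted p (3223 and 614), the other pseudocounts, filters and priors, the fit of only 4 mice, protein-coding genes only, libraries thinned to the shallowest, at least 30 estimated reads, and leaving out genes high in 1 library stayed within 1.5 times of both counts. The last 3 were chosen after seeing the data. Calls between polyI:C AP and AP (74 and 68) ran from 0 to 48 and from 0 to 46 with 1 mouse left out.

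The replicate numbers in the titles were not treated as pairs. Deviations of same-numbered mice from their group means had a correlation of -0.0039 between saline and polyI:C AP. With 2 mice a group this cannot show whether such mice were handled together. A replicate block gave 2799 raised and 488 reduced genes. Of the genes named above, 4 turned direction under some setting, none of them called with all mice: Chil3 (-0.79 to 0.45 with 1 mouse left out, the highest without saline mouse 1, and 0.058 thinned to the shallowest library), Cybb (-0.48 to 0.22, the highest without saline mouse 1), Fabp1 (-1.91 to 9.57, the lowest without polyI:C AP mouse 2) and Mki67 (-0.084 to 2.56, the lowest without polyI:C AP mouse 2). With 2 mice a group, low genes of the shallower saline libraries were measured with the least precision.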
